A study of Mus musculus with 6 samples.

Results

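The genes described are 8 regulators and receptors of the glia and melanoblasts that arise from the neural crest: Sox10, Sox8, Foxd3, Ets1, Mitf, Erbb3, Ednrb and Ngfr. They were chosen by name, and every probe set whose only gene symbol in the platform annotation was one of them was taken, which gave 19 of 45101 probe sets. As 8 of 18194 genes tested, each was represented by its probe set with the highest mean over 6 arrays. The tissue was branchial arch 1, the embryonic jaw primordium, dissected from mouse embryos at embryonic day 11.5. All 6 embryos carried conditional Ezh2lox/lox alleles. Ezh2 is the enzyme of the Polycomb complex that methylates histone H3 at silenced developmental genes. The 3 embryos labelled Ezh2lox/lox are called labelled control, and the 3 labelled Wnt1Cre Ezh2lox/lox, with a Cre driver active in the neural crest lineage, are called labelled mutant. Each embryo gave 1 arch and 1 array. The arch also holds mesoderm, epithelium, vessels and blood, which Wnt1Cre is not meant to recombine, so a bulk arch need not lose all Ezh2.

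The neural crest leaves the dorsal neural tube and, in the head, forms most of the arch mesenchyme together with the glia of the cranial nerves and the pigment cell precursors. Sox10, a SoxE transcription factor, is kept in glial and melanoblast precursors and is switched off in crest cells that become mesenchyme. Erbb3, Ednrb and Ngfr are surface receptors through which such precursors read neuregulin, endothelin 3 and neurotrophins, and Mitf is the master regulator of the melanocyte.

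Several checks of the labels bear on every direction given here. The single Ezh2 probe set read 11.63 ± 0.15 (SD, n = 3) where the label was control and 11.66 ± 0.01 where it was mutant, and its place relative to the deleted part was not determined, so it checks neither label. Hoxa9, a trunk gene that Polycomb normally silences in the jaw arch, read 11.28 under the control label and 4.21 under the mutant label, opposite to what textbook knowledge of Ezh2 loss would place there. Xist read 5.62 and 13.03 in the same order, and the Y-linked Kdm5d 9.18 and 2.95, so embryo sex and genotype label cannot be told apart. The labels of the groups may have been exchanged, in which case every direction given here would turn. Genes listed for arch mesenchyme were bright on all 6 arrays. The mesenchymal regulators Prrx1 and Hand2 read at least 12.23 and 11.13 on every array, far above the array median of 5.81. Barx1 and Lhx8 read at least 10.45 and 10.17. Whether these genes tell the arch from other embryonic mesenchyme was not tested. All values are log2 signals as the authors processed them, differences are labelled mutant minus labelled control, and errors are SD with n = 3 arrays per group unless stated.

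Most of these genes read lower in the arches labelled mutant, and 3 of the falls passed the test. Ednrb fell to 53.1% of its labelled-control signal, Sox10 to 63.3% and Ets1 to 65.1%, and these are the 3 of 8 past the threshold (limma, Benjamini-Hochberg adjusted p under 0.05 over 18194 genes, two-sided), against 4.3% of all genes called lower. If the labels were exchanged, as the Hoxa9 signals leave possible, the same values would read 1.88-fold, 1.58-fold and 1.54-fold higher in the mutant for Ednrb, Sox10 and Ets1. Rises that passed numbered 0 of 8 with limma, and also at an unadjusted p of 0.05, against 1.23% and 8.54% of all genes called higher by these rules. The arrays of the groups did not overlap, with labelled mutant below, for 6 of 8 genes, against 11.9% of all genes. The same 6 genes, all but Foxd3 and Mitf, were lower at an unadjusted p of 0.05, against 10.2% of all genes. The median difference of the 8 was -0.55, where that of all genes was 0.02. In a bulk arch, fewer glial or pigment precursors and less RNA per cell cannot be told apart.

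**Figure D1:**
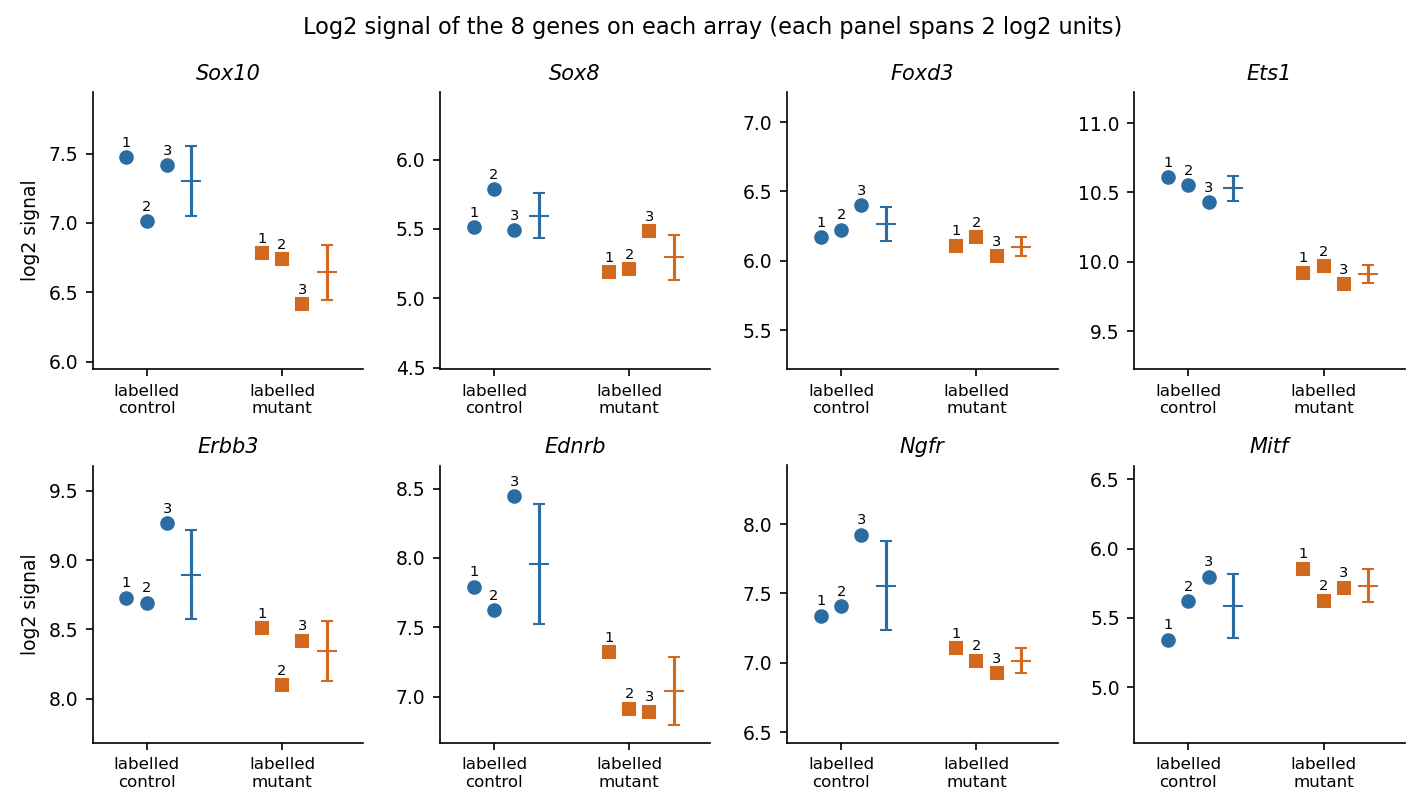
Log2 signal of each of the 8 genes on each array, as points numbered by replicate (circles, labelled control; squares, labelled mutant), with the mean and SD of 3 arrays beside them. Every panel spans the same range on the vertical axis. The groups are apart for all genes but Foxd3 and Mitf, and labelled-control array 3 is the highest point for Foxd3, Erbb3, Ednrb and Ngfr.

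Of the transcription factors, Sox10 drives glial and melanoblast genes, among them Erbb3 and Mitf. Its brightest probe set read 7.48, 7.01 and 7.42 on the labelled-control arrays and 6.78, 6.74 and 6.41 on the labelled-mutant arrays. All labelled-mutant arrays lay below all labelled-control arrays, with a gap of 0.23 between the nearest arrays. The difference was -0.66 ± 0.14 (standard error; limma adjusted p = 0.0348). This call rested on single arrays. It was lost without labelled-control array 1 (limma adjusted p = 0.0907) or 3 (0.0898) and without labelled-mutant array 1 (0.0513), 2 (0.0864) or 3 (0.136). It held without labelled-control array 2, at 0.0227. The other probe sets of Sox10 did not show the fall: 1424985_a_at differed by 0.05 (95% interval -0.14 to 0.24) and 1425369_a_at by 0.12 (-0.08 to 0.33). With the mean of its 3 probe sets, the Sox10 difference shrank to -0.16 and did not pass (limma adjusted p = 0.380).

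Ets1 encodes an ETS-family factor of the cranial crest that endothelial and blood cells also express. It read 10.61, 10.55 and 10.43 on the labelled-control arrays against 9.92, 9.97 and 9.84 on the labelled-mutant arrays. The gap between the nearest arrays was 0.46, and the spread within either group was small beside it. The difference was -0.62 ± 0.08 (standard error; limma adjusted p = 0.0038), and it passed under all 13 alternatives tried, at adjusted p between 0.0013 and 0.0279. A second bright probe set, 1452163_at, read 10.25 ± 0.18 and 9.76 ± 0.08. The remaining Ets1 probe sets, 1422028_a_at and 1422027_a_at, had labelled-control means of 5.83 and 5.32 and differences of -0.12 and -0.06 that did not pass.

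Sox8, the SoxE relative of Sox10, read 5.51, 5.79 and 5.49 on the labelled-control arrays and 5.19, 5.21 and 5.48 on the labelled-mutant arrays. The groups were apart by only 0.007, and the difference of -0.30 with a standard error of 0.11 did not pass (limma adjusted p = 0.201). Foxd3 encodes a forkhead factor of early crest that holds back the pigment fate. It read 6.17, 6.22 and 6.40 against 6.11, 6.17 and 6.03, so that the groups met at 6.17. Its difference of -0.16 (95% interval -0.36 to 0.04) did not pass (limma adjusted p = 0.375). Each of these genes had 1 probe set.

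Mitf was the one gene of the 8 with a positive difference, and it did not pass. It read 5.34, 5.62 and 5.80 on the labelled-control arrays and 5.86, 5.62 and 5.72 on the labelled-mutant arrays, and the groups overlapped. The difference was 0.15 (95% interval -0.13 to 0.43; limma adjusted p = 0.590), so that neither a modest rise nor a small fall can be told from no change. Without labelled-control array 1 the Mitf difference was 0.02, and without labelled-control array 3 it was 0.25. It was 0.08 without labelled-mutant array 1. The second Mitf probe set, 1422025_at, read 3.38 ± 0.19 and 3.48 ± 0.02, below the array's 25th percentile of 4.33, where signals are mostly background.

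The receptor genes differed in the same direction as Sox10, although Ednrb alone passed. Ednrb encodes the endothelin receptor B, which melanoblasts and enteric crest need and which endothelial cells also carry. It read 7.79, 7.62 and 8.44 on the labelled-control arrays and 7.32, 6.91 and 6.89 on the labelled-mutant arrays. Labelled-control array 3 was the highest, yet the lowest labelled-control array still lay 0.30 above the highest labelled-mutant array. Ednrb had the largest difference of the 8, -0.91 ± 0.21 (standard error; limma adjusted p = 0.0407). Without labelled-control array 3 the difference was -0.67 and still passed. The call was lost without labelled-control array 1 (limma adjusted p = 0.0706) and without labelled-mutant array 2 (0.152) or 3 (0.158). Both dimmer probe sets were also lower in the labelled-mutant arches, 1423594_a_at by -0.40 (95% interval -0.70 to -0.10) and 1426314_at by -0.15 (-0.45 to 0.15), without passing.

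Erbb3, the neuregulin receptor of Schwann cell precursors, works as a partner of Erbb2 because its own kinase is weak. It read 8.73, 8.69 and 9.27 on the labelled-control arrays and 8.51, 8.10 and 8.42 on the labelled-mutant arrays. The groups did not overlap, but the difference of -0.55 with a standard error of 0.17 did not pass (limma adjusted p = 0.112). Its second probe set, 1452482_at, ran the other way by 0.24 at signals of 4.32 and 4.56, near the low end of the scale. Ngfr encodes the p75 neurotrophin receptor, a surface marker of migrating crest and immature glia that some mesenchyme also carries. It read 7.34, 7.41 and 7.92 against 7.11, 7.01 and 6.92. Here too the groups were apart while the difference, -0.54 with a standard error of 0.15, did not pass (limma adjusted p = 0.0794). The other Ngfr probe sets, 1421241_at and 1450177_at, differed by -0.05 and 0.17 at levels around the array's 25th percentile. With the mean of its probe sets, Ngfr differed by -0.14 (limma adjusted p = 0.354).

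Labelled-control array 3 was the highest of all 6 arrays for 4 of the 8 genes, against 24.8% of all genes. It had the highest value for Foxd3, Erbb3, Ednrb and Ngfr. Without it the differences shrank to -0.09 for Foxd3, -0.37 for Erbb3 and -0.36 for Ngfr, while those of Sox10 and Ets1 were -0.60 and -0.67. The same array was the highest for the glial genes Cdh19, at 6.59 against 5.48 and 5.41 on the other labelled-control arrays, and Fabp7, at 8.49 against 7.17 and 6.71. It was also the highest for Krt14, a keratin of surface epithelium, at 9.55 against 7.80 and 8.35. By list, it was the highest for 5 of 15 glial, 5 of 8 macrophage, 5 of 11 endothelial, 4 of 7 epithelial and 4 of 10 muscle genes. For neuronal genes this was 1 of 15, for arch mesenchyme genes 1 of 11 and for melanocyte genes 2 of 13. The part of the tissue content of this array in the results was not tested.

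**Figure D2:**
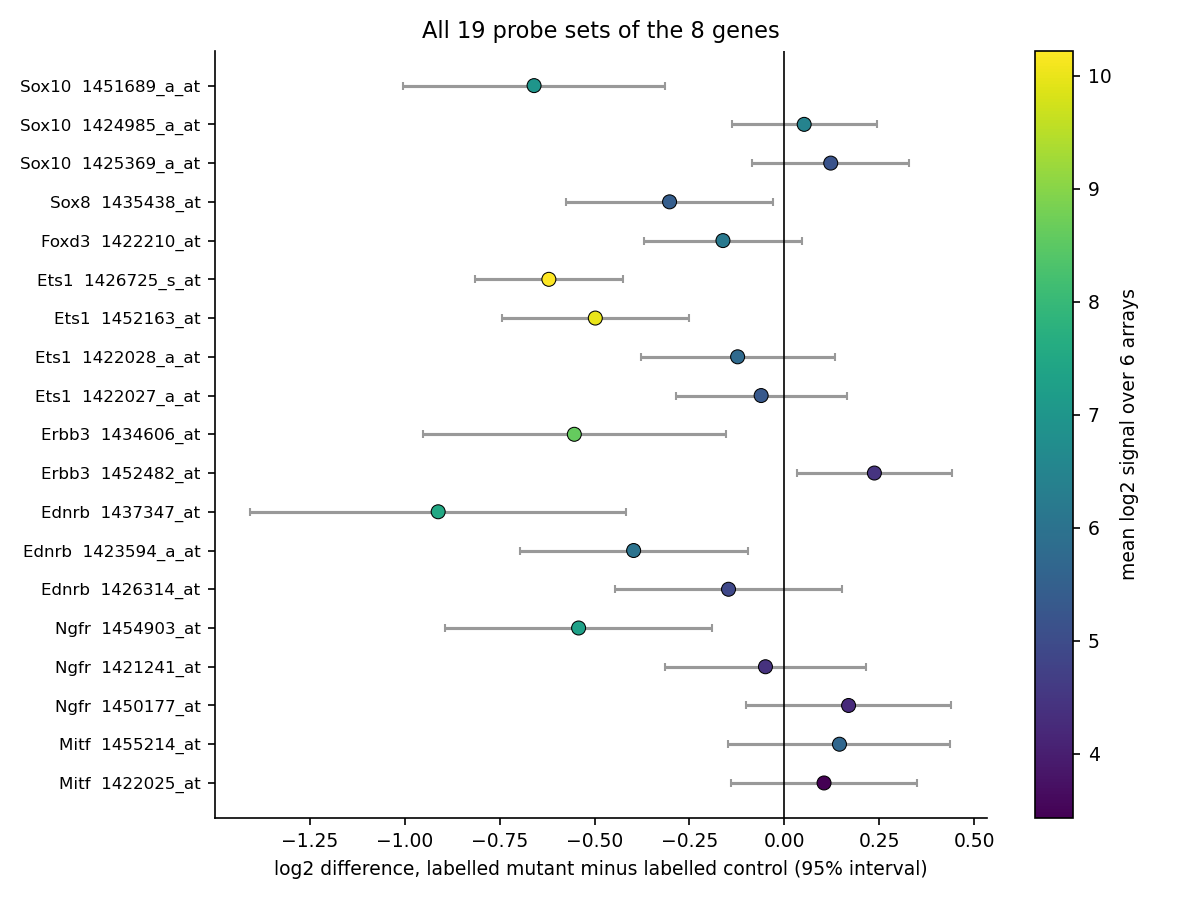
Log2 difference, labelled mutant minus labelled control, of all 19 probe sets with the 95% interval of the limma fit over 34958 probe sets; the colour gives the mean log2 signal over 6 arrays. The brightest probe set of Sox10, Ets1, Erbb3, Ednrb and Ngfr lies left of 0, and the dimmer ones of the same gene lie nearer to 0 or right of it.

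When all 34958 probe sets with a single symbol were tested in place of genes, 1 of the 19 passed, Ets1 1426725_s_at (limma, Benjamini-Hochberg adjusted p = 0.0094), against 2.27% of probe sets called lower and 0.555% called higher. The bright probe sets of Sox10 and Ednrb missed the threshold there, at adjusted p = 0.0655 and 0.0748. The second Ets1 probe set reached 0.0552. The differences are the same as in the fit over genes, while the spread estimate and the number of tests differ. Unadjusted p went from 0.0016 to 0.0022 for Sox10 and from 0.0020 to 0.0028 for Ednrb. For 6 of the 8 genes more than 1 probe set existed, and where probe sets lie in the transcripts was not determined here.

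**Figure D3:**
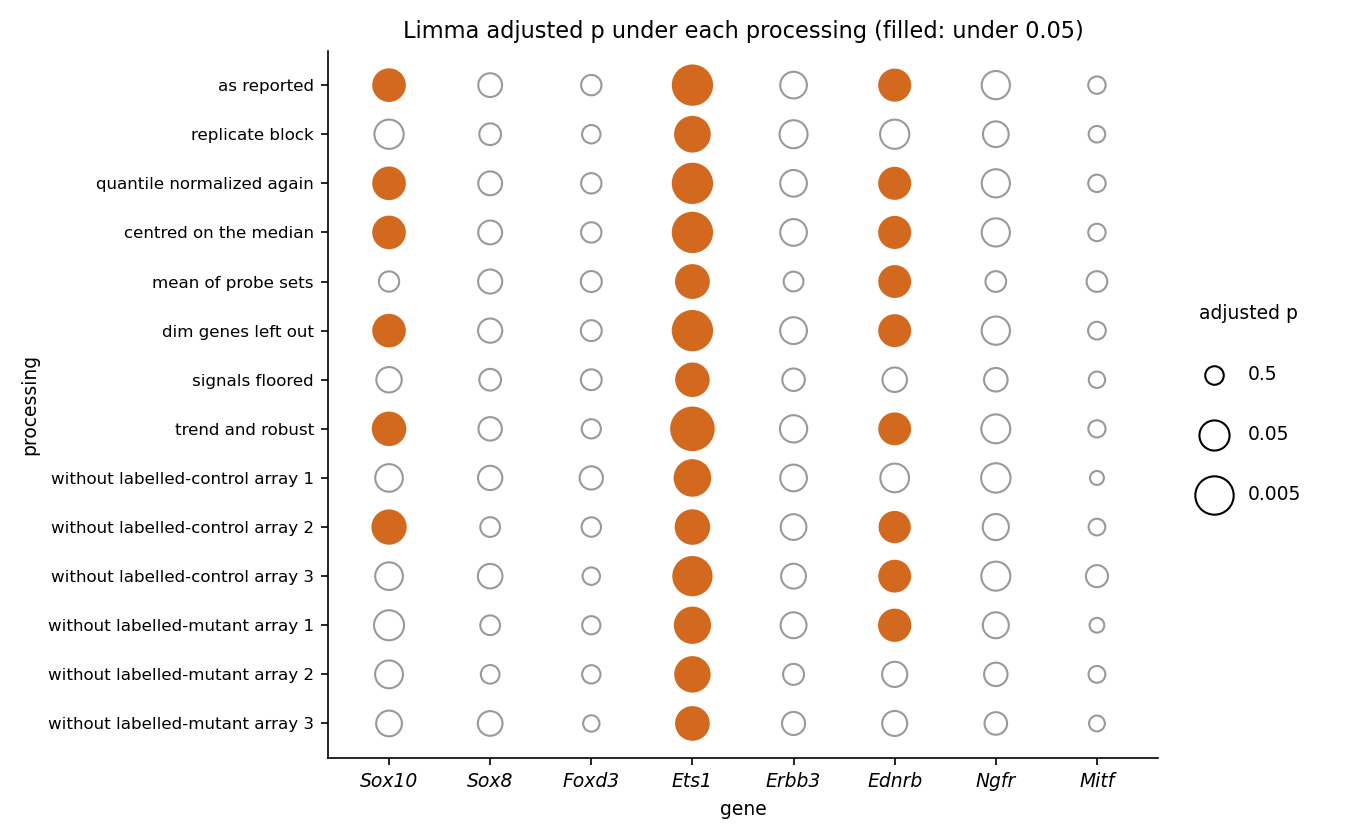
Limma adjusted p of each of the 8 genes as reported and under 13 alternatives, with larger circles for smaller p and filled circles below 0.05. Ets1 is filled in every row, Ednrb in 8 and Sox10 in 5 of the 13 alternatives, and the other genes in none.

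**Figure D4:**
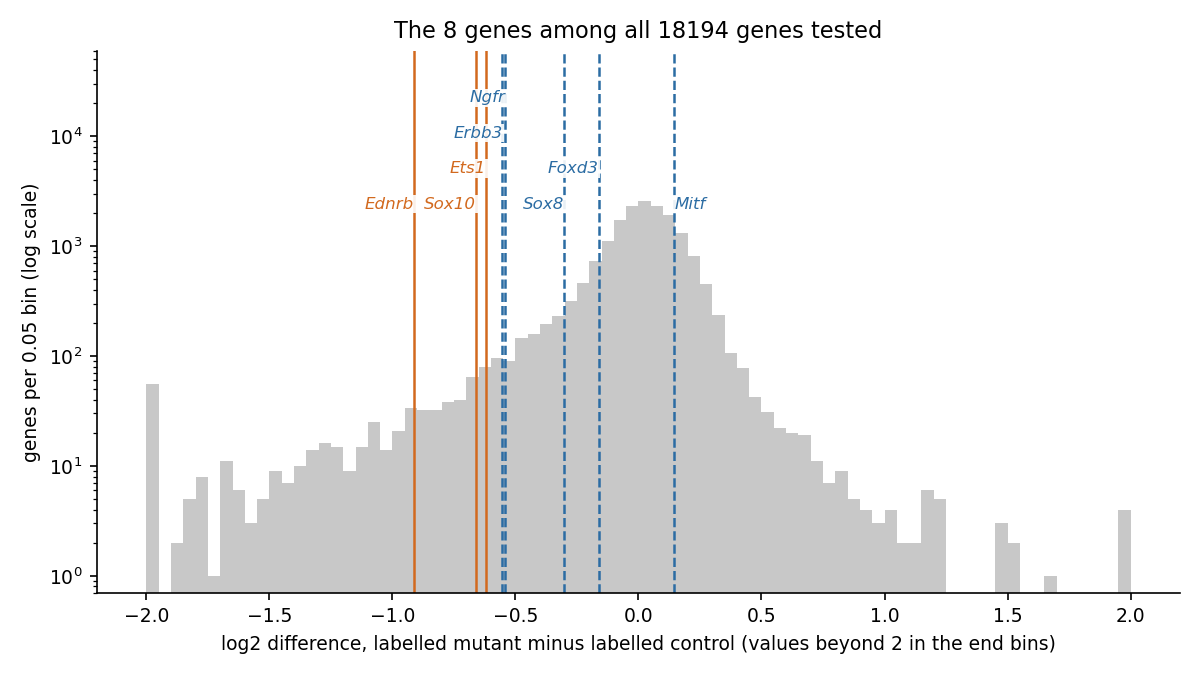
Number of genes (log scale) by log2 difference, labelled mutant minus labelled control, for all 18194 genes, with values beyond the axis gathered in the end bins. Lines mark the 8 genes, solid where limma's adjusted p was under 0.05 (Ednrb at -0.91, Sox10 at -0.66, Ets1 at -0.62) and dashed otherwise. Mitf alone lies right of 0.

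The ligands and partner receptors of these receptors mostly did not pass the test. Edn3, the ligand that acts on Ednrb in crest cells, read 7.91 ± 0.11 and 7.96 ± 0.10, a difference of 0.05 (95% interval -0.15 to 0.26). Edn1, the arch epithelial ligand of the other endothelin receptor, differed by -0.23, and the converting enzyme gene Ece2 by 0.23. Neither of these passed (limma adjusted p = 0.312 and 0.164). Of 5 endothelin genes measured 0 passed with limma, and 1 was higher at an unadjusted p of 0.05. Erbb2, the signalling partner of Erbb3, read 8.01 ± 0.18 and 7.92 ± 0.07 without passing. Nrg1, the axonal ligand that Schwann cell precursors depend on, read 4.69 ± 0.20 and 4.81 ± 0.09, and Erbb4 lay near 3.00 in both groups, below the array's 25th percentile. Egfr, the founding ErbB receptor, fell by 0.63 from 8.04 to 7.41 (limma adjusted p = 0.0233). It was the single one of 8 neuregulin and ErbB genes to pass, against 4.3% of all genes called lower. The Egfr call was lost without labelled-control array 1, 2 or 3 and without labelled-mutant array 2 or 3, at limma adjusted p between 0.0506 and 0.109. With the mean of the Egfr probe sets the difference was -0.08.

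Among the neurotrophins, Bdnf fell. It encodes a ligand that binds both Ngfr and the Trk receptor encoded by Ntrk2. Bdnf read 8.76, 8.96 and 8.82 on the labelled-control arrays and 8.05, 7.56 and 7.48 on the labelled-mutant arrays. The groups were well apart, and the difference was -1.15 with a standard error of 0.14 (limma adjusted p = 0.0031). The second Bdnf probe set, 1422168_a_at, differed by -1.29. Ntrk2 read 7.16 ± 0.31 and 7.57 ± 0.41 and Ntf5 7.97 ± 0.40 and 7.68 ± 0.12, and neither passed. Of 5 neurotrophin genes measured, 1 fell, against 4.3% of all genes, and 4 did not pass.

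Among other genes of immature glia, a few fell with Sox10. Gfra3, a co-receptor of the GDNF family found in Schwann cell precursors and sensory neurons, read 7.01, 7.98 and 8.22 on the labelled-control and 6.55, 6.37 and 6.07 on the labelled-mutant arrays. The difference was -1.41 with a standard error of 0.28 (limma adjusted p = 0.0230), the largest in the glial list. The Gfra3 call was lost without labelled-control array 2 (limma adjusted p = 0.105) or 3 (0.0535). It was also lost without labelled-mutant array 2 (0.0760) or 3 (0.0989). Sox2, which marks glial and other progenitors and also oral epithelium, fell by 0.67, and Cnp, a gene of myelinating and immature glia, by 0.48 (limma adjusted p = 0.0297 and 0.0110). Falls that passed numbered 5 and rises 0 of the 15 glial genes with signals, against 4.3% and 1.23% of all genes. The other 10 missed the threshold, and the median difference was -0.09 against 0.02 for all genes. Cdh19, a cadherin of Schwann cell precursors, and Ncam1 make up the 5 and were named after their values were seen. Their differences were -1.29 and -0.77 (limma adjusted p = 0.0350 and 0.0499). With the mean of probe sets, Cnp and Ncam1 differed by -0.19 and -0.24 and did not pass. Sox2 lost its call without labelled-control array 1 or labelled-mutant array 1, 2 or 3. Cdh19 lost its call without labelled-control array 2 or labelled-mutant array 1, 2 or 3. With 1 array left out, Ncam1 passed only without labelled-mutant array 1, and Cnp did not pass without labelled-mutant array 2 or 3.

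Of the genes that did not pass, Egr2 and Pou3f1, regulators of myelination, differed by -0.03 and -0.05, and the desert hedgehog gene Dhh by 0.13. S100b, at 4.71 and 4.77, and Mbp, at 6.82 and 7.09, were also not past the threshold. Gfap, Mbp and Cdh6 differed by 0.22, 0.27 and 0.43, with the sign opposite to that of Sox10. At an unadjusted limma p of 0.05, 2 of the 15 glial genes were higher and 5 lower, against 8.54% and 10.2% of all genes. Fabp7, an early marker of Schwann cell precursors, differed by -0.72 with a standard error of 0.38 and did not pass. The count of glial genes that fell was 3 without labelled-control array 1 or 3 or labelled-mutant array 1, and 2 without labelled-control array 2. Without labelled-mutant array 2 or 3 it was 0 with limma, while 5 were still lower at an unadjusted p of 0.05. The summed linear signal of the 15 genes was 3661 to 4414 on the labelled-control and 2759 to 3448 on the labelled-mutant arrays. The brightest genes of the list, Cnp, Sox2, Ncam1, Pmp22 and Cdh6, dominate this sum. Cdh19, at 5.83 and 4.54, adds little to it.

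**Figure D5:**
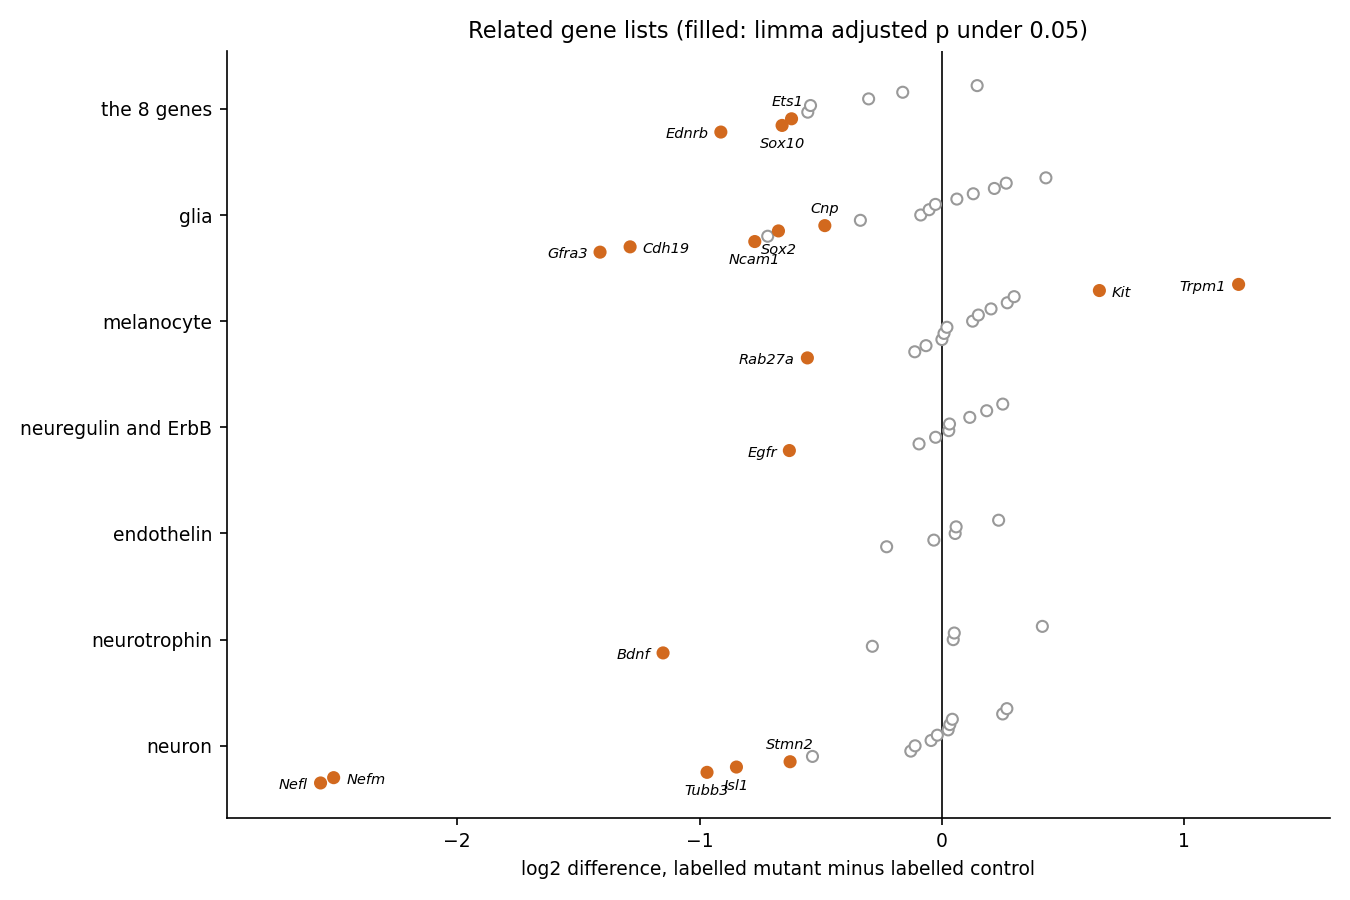
Log2 difference, labelled mutant minus labelled control, of the 8 genes and of the glial, melanocyte, neuregulin and ErbB, endothelin, neurotrophin and neuronal lists, 1 point per gene. The early crest list, with 5 rises and 1 fall, and the arch mesenchyme list, with 7 rises and 0 falls, are not plotted. The endothelial, macrophage, epithelial and muscle lists are not plotted either. Filled points passed limma's adjusted p of 0.05 and carry their names. Filled points in the plotted lists lie left of 0, except Kit and Trpm1 among the melanocyte genes.

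The melanocyte genes did not move as one. Kit, the receptor that melanoblasts need to survive and migrate, read 7.92, 7.78 and 8.23 on the labelled-control and 8.38, 8.78 and 8.71 on the labelled-mutant arrays. It rose by 0.65 with a standard error of 0.14 (limma adjusted p = 0.0337). The Kit call was lost without labelled-control array 1 (limma adjusted p = 0.0868) or 2 (0.123), without labelled-mutant array 2 (0.138) or 3 (0.142), and with the mean of its probe sets (0.0716). Trpm1, a channel gene of melanocytes and retina that Mitf activates, differed by 1.22 on its brightest probe set (limma adjusted p = 0.0021) and by 0.41, 0.11 and 0.06 on its others. Rab27a, a gene of melanosome transport that other secretory cells also use, fell by 0.56 (limma adjusted p = 0.0059), but by 0.17 without passing when its probe sets were averaged.

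The genes of pigment synthesis itself gave dim signals. Dct, the earliest melanoblast enzyme, ran from 4.91 to 5.05 on the labelled-control and from 5.16 to 5.43 on the labelled-mutant arrays, a difference of 0.30 in which the groups did not overlap but which did not pass (limma adjusted p = 0.115). Tyrp1 read 4.30 ± 0.17 and 4.43 ± 0.10, and Tyr read 3.76 and 3.78, below the array's 25th percentile. Of 13 melanocyte genes 2 rose, 1 fell and 10 did not pass, with a median difference of 0.13. Over all genes, 1.23% were called higher and 4.3% lower. The summed signal of the list was 710.4 to 810.1 on the labelled-control and 959.8 to 1147 on the labelled-mutant arrays, a sum that Kit and Trpm1 dominate. Leaving out labelled-control array 1 or 2, or labelled-mutant array 2 or 3, left 1 rise.

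Markers of other cell types that could carry some of these genes were measured on the same arrays. Of all genes, 4.3% were called lower and 1.23% higher with limma, and 10.2% and 8.54% at an unadjusted p of 0.05. For the endothelium, which expresses Ets1 and Ednrb, 0 of 11 genes passed with limma, and 1 was lower at an unadjusted p of 0.05. The endothelial sum was 4026 to 4214 on the labelled-control and 3711 to 3852 on the labelled-mutant arrays. The median difference of the endothelial list was -0.10. Tal1, Erg and Tie1, with the largest absolute moderated t, differed by -0.62, -0.19 and -0.24. Cdh5 differed by -0.08, while Kdr, Flt1 and Esam were higher by 0.10, 0.11 and 0.01. No endothelial marker averaged below the array's 25th percentile. Of 8 macrophage genes, Ptprc alone passed, with a fall of 0.46. The macrophage sum was 1069 to 1246 on the labelled-control and 798.4 to 999.7 on the labelled-mutant arrays. Csf1r, the brightest gene of the list, dominates this sum. It differed by -0.46 without passing on its brightest probe set, and by -0.06 and 0.07 on its others. Of 15 neuronal genes 5 fell, among them the neurofilament genes Nefl (-2.56) and Nefm (-2.51), and the sum was 3410 to 4003 against 2045 to 2577. The median difference of the neuronal list was -0.11, and Prph and Gap43 were higher by 0.27 and 0.25 without passing. The neuronal falls numbered 3 without labelled-mutant array 3. The sensory ganglion regulators Neurod1, Neurod4 and Pou4f1 averaged below the 25th percentile. Of 7 epithelial genes Krt8 alone passed, with a rise of 0.52, and the sums of 3692 to 5613 and 4476 to 4565 overlapped. The calls of both Ptprc and Krt8 were lost without labelled-control array 1 or 2 and without labelled-mutant array 2 or 3, among others. Of 10 muscle genes 3 fell, with Myog at -2.25, and the sum was 1816 to 2676 against 795.2 to 1554. The muscle falls numbered 1 without labelled-control array 3 or labelled-mutant array 2 or 3, and 0 without labelled-control array 2 (limma; 5 at an unadjusted p of 0.05). Of 11 arch mesenchyme genes 7 rose, Dlx5 by 1.18, and the sum was 12843 to 15058 against 17649 to 19280. These rises numbered 4 without labelled-control array 2 or labelled-mutant array 1 or 2, and 3 without labelled-mutant array 3. The part of these changes in tissue make-up in the results for the 8 genes was not tested.

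Genes of early crest specification showed no shared direction. Sox9, the SoxE gene of cartilage, differed by 0.90 without passing (limma adjusted p = 0.115), with the sign opposite to that of Sox10 and Sox8. It read 7.675, 7.784 and 6.593 on the labelled-control arrays, so that the low array 3 widened the difference. The labelled-mutant arrays read 8.086, 8.405 and 8.274. Of 13 early crest genes 5 rose and 1 fell, against 1.23% and 4.3% of all genes. Msx2 and Sox5 were higher by 1.10 and 1.14 and Zic1 lower by 7.22. Pax3 and Tfap2b, which melanoblast and glial precursors also use, differed by -0.13 and -0.12 and did not pass.

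The genes whose signals followed Sox10 most closely over the 6 arrays, by Pearson correlation among 9097 genes above the median level, were Glis1 (r = 0.994), Wrn (0.988), Rnf213 (0.988), Zfand4 (0.987) and Ssbp3 (0.986). Their differences between groups were -0.22, -0.27, -0.57, -0.30 and -0.18, and Rnf213 alone passed the test. Over the same arrays, 203 genes, or 2.23%, exceeded r = 0.9. Of the 8 genes, Ednrb (0.889) and Ets1 (0.881) followed Sox10 most closely, then Ngfr (0.818), Foxd3 (0.747) and Erbb3 (0.746), with Sox8 at 0.331 and Mitf at -0.427. All these values share the difference between the groups, so they describe 6 arrays and carry no test.

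Promoter sequence was at hand from RefSeq (GRCm38.p6, 250 bases before to 50 after each listed start) for 5 of the 8 genes, at 7 starts. The promoter set at hand held no entry under the symbols Sox10, Ets1 or Erbb3. Those of Ednrb and Ngfr are shown as receptor genes whose groups did not overlap, and the most downstream listed start of Mitf as that of a gene whose groups overlapped. In mammals the Mitf locus has several alternative promoters, of which the most downstream drives the melanocyte form. Capitals mark matches on either strand to the letters searched: ACAAAG and ACAATG for SOX factors, CACGTG and CATGTG for MITF, CCGGAA for ETS factors and TGACGTCA, the cyclic AMP response element, which was added after the sequences had been seen. Each is given 5′ to 3′ on the strand of the gene.
Ednrb, chr14:103843652-103843951, minus strand: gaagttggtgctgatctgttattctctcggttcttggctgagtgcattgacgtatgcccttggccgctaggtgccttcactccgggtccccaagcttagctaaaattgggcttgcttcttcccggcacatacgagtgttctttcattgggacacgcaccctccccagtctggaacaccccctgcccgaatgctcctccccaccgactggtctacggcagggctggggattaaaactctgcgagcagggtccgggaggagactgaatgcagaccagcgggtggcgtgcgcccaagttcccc
Ngfr, chr11:95587649-95587948, minus strand: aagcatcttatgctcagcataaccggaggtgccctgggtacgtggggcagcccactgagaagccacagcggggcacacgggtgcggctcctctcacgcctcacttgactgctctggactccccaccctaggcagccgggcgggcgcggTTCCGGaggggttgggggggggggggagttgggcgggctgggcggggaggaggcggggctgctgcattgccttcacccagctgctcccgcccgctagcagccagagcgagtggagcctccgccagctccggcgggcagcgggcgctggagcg
Mitf, most downstream start, chr6:97991533-97991832, plus strand: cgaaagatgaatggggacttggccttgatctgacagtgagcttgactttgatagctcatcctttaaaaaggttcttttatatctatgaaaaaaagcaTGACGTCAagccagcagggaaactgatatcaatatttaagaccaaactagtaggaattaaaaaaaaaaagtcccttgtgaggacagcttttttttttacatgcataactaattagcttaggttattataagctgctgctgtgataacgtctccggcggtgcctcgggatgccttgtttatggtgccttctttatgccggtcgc

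The windows differed in base composition. Ngfr had a GC content of 71.7% with 23 CpG sites and Ednrb 58.7% with 15, against medians of 52.7% and 7 over all 32851 promoters of the same length, whereas the most downstream Mitf start had 40% and 8. The Ednrb window matched no searched motif. The Ngfr window held the ETS letters 102 bases before the start, which 14.9% of all promoters hold, and the printed Mitf window held the cyclic AMP letters 153 bases before its start, found in 1.79% of all promoters. The Foxd3 window, at chr4:99656049-99656348, held the same letters 233 bases before its start and CACGTG 217 bases before it. The Sox8 window, at chr17:25570637-25570936, held CACGTG at 152 bases, a motif in 7.15% of all promoters. The SOX letters ACAAAG and ACAATG, present in 18.7% and 12.6% of all promoters, and CATGTG, in 14.2%, were in none of the 7 windows. A match is a description of these letters, and the probe sets used do not tell the Mitf starts apart here.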

How the data were processed

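Total RNA of single arches was hybridised to 1-colour Affymetrix arrays with biotin label, per the labels' protocols and the platform annotation. The authors deposited 1 log2 value per probe set and array. No label names the scale, which was read from the values. Quartiles were the same on all 6 arrays (4.33, 5.81 and 8.17), so the authors had brought the arrays to 1 distribution. How background was corrected and probes were summarised is not given in the sources used here, and no detection call was used. A shift of all genes together could not be seen.

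Gene names came from the platform annotation of 2016. Of 45101, 34958 had 1 symbol, 932 several and 9211 none. The test was limma's moderated test (version 3.58.1 in R 4.3.3), labelled mutant minus labelled control, without covariates, on 18194 genes and separately on 34958 probe sets, with Benjamini-Hochberg adjustment and a threshold of 0.05. The fit was tested on simulated data. Correlations between arrays were 0.995 to 0.998 within and 0.988 to 0.992 between groups, and no array repeated another. The number of arrays limits the precision.

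The 8 genes and the lists were chosen with earlier results of these data known. Genes named are the 8, Ezh2 and sex-linked genes, genes with the largest absolute moderated t in each list (3 per list at most), the ligands and partner receptors, Dct, Tyr and Tyrp1, and the 5 genes most like Sox10. Further genes were named after their values were seen. Alternatives tried were a replicate block, repeated quantile normalization, median centring, the mean of probe sets, leaving out dim genes (mean below the 25th percentile), flooring at the 20th percentile, trend and robust settings, and leaving out each array.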

Additional observations from a re-analysis of the deposited data

How the results depend on the processing

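All 13 alternatives kept the sign of each of the 8 differences, and Ets1 passed in all of them. Sox10 did not pass with a replicate block (difference -0.66, limma adjusted p = 0.0620), with the mean of probe sets (-0.16), or with floored signals (-0.66, adjusted p = 0.147). Ednrb did not pass with a replicate block (-0.91, adjusted p = 0.0625) or with floored signals (-0.91, adjusted p = 0.175). Leaving out 1 array gave -0.80 to -0.54 for Sox10 and -1.08 to -0.67 for Ednrb, and 1 to 3 of the 8 genes lower. With the block or the floor, 1 of the 8 was lower, and genes past the threshold numbered 657 and 329, against 1007 as reported and 435 to 1021 with 1 array left out. Deviations from the group mean gave correlations of -0.21, -0.12 and -0.07 between arrays of equal replicate number. With 3 arrays per group these deviations depend on each other, so the correlations cannot decide whether samples were paired. The labels state no pairing, and the block is given here alone. Counts for lists and for all 19 probe sets were added after seeing the data. Glial falls were 1 with the floor, 3 with trend and robust settings and 0 to 3 with 1 array left out. Neuronal falls were 2 with the floor and 3 to 5 with 1 array left out. Melanocyte rises were 1 with the mean of probe sets, 0 with the floor (limma; 4 at an unadjusted p of 0.05) and 1 to 2 with 1 array left out. Muscle falls were 1 with the block, the mean of probe sets or trend and robust settings, 0 with the floor (limma; 5 at an unadjusted p of 0.05) and 0 to 4 with 1 array left out. Arch mesenchyme rises were 4 with the block, 3 with the floor and 3 to 5 with 1 array left out. Probe sets of the 8 genes past the threshold were 2 with trend and robust settings and 0 to 2 with 1 array left out. The floor also ended the calls of Bdnf, Egfr, Gfra3, Cdh19, Sox2, Ncam1, Kit, Trpm1 and Myog (limma adjusted p between 0.0515 and 0.188). The floor left signals above it as they were, and the cause of the calls lost with it was not tested.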
